A study of Mus musculus with 8 samples.

Results

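Ifitm1, Ifitm2 and Ifitm3, the 3 interferon-induced transmembrane genes examined here, were followed in whole mouse embryos 3 h after their dams received hydroxyurea or saline. They were chosen by their scaled log2 signal in hydroxyurea against saline arrays, which was already known, so the values of that contrast are given for them as a description, without a test. All probes whose RefSeq accession belongs to these symbols were taken. This gave 3 probes, 1 per gene, among 20145 gene symbols on the array. Of the other Ifitm genes, 3 had a probe (Ifitm5, Ifitm6 and Ifitm10). The embryos were of the outbred CD-1 stock on gestational day 9. The treated group came from dams given 400 mg/kg hydroxyurea, which inhibits ribonucleotide reductase, and the control group from dams given saline, both by intraperitoneal injection. Each group had 4 arrays of total RNA labelled with Cy3, spread over 2 slides with 2 arrays of each group on each. The arrays are numbered here within each group in the order of the samples, so equal numbers do not mark a pair. The labels speak of 4 independent experiments. They do not tie samples to a litter, a dam or an experiment, nor state whether embryos were pooled, so the p-values below measure only the spread between these samples.

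Interferons bind receptors at the cell surface, whose signal then switches on genes that carry an interferon-stimulated response element or a gamma-activated site in their promoters. The interferon-induced transmembrane proteins are among the products of these genes. They are small proteins of cell and endosome membranes that hinder the fusion of enveloped viruses with the cell. In the early mouse embryo Ifitm3 and Ifitm1 are also known as fragilis genes, since they mark primordial germ cells and the tissue around them, and several stem cell types carry Ifitm RNA without added interferon.

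The promoters of the 3 genes are shown because these genes lie side by side and yet differed in their values. The windows run from 250 bases before to 30 bases after the RefSeq start of each gene and were taken by symbol from RefSeq in build GRCm38.p6. They are Ifitm1 at chr7:140967826-140968105 on the plus strand, Ifitm2 at chr7:140955932-140956211 on the minus strand and Ifitm3 at chr7:141010715-141010994 on the minus strand. The array files name another build (mm9) on 4 arrays and none on the others, and no position was converted. All are written 5′ to 3′, and the capitals mark matches to GAAANNGAAA, the core of the interferon-stimulated response element, or to TTCNNNGAA, the core of the gamma-activated site.
Ifitm1: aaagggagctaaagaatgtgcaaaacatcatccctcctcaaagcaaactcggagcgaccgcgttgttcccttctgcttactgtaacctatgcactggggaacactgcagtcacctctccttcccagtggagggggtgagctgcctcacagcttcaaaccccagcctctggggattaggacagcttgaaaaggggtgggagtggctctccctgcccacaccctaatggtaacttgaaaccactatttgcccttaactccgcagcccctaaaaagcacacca
Ifitm2: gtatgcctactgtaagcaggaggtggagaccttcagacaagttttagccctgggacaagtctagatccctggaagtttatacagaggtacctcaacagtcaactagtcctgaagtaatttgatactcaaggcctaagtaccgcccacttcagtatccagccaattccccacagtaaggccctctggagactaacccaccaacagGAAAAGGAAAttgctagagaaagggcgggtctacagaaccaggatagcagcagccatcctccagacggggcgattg
Ifitm3: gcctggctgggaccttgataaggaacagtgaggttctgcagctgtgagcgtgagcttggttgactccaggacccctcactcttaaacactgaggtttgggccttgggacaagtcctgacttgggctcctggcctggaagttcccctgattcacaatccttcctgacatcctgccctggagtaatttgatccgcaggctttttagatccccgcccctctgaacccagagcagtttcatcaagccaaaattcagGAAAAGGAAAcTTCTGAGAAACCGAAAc

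Both strands of each window were searched, with position 1 at the RefSeq start. In Ifitm3 the letters GAAAAGGAAA lay at positions 3 to 12 and GAAACCGAAA at positions 20 to 29. TTCTGAGAA, at positions 14 to 22, overlapped the latter. In Ifitm2 GAAAAGGAAA lay from position -46 to position -37, and neither pattern was in the Ifitm1 window. Over all 32851 promoter windows of this length, 3.28% held GAAANNGAAA and 7.83% held TTCNNNGAA. The longest stretch shared by the Ifitm2 and Ifitm3 windows was caggaaaaggaaa, with 13 bases, which 3 of all windows held, Ifitm2 and Ifitm3 among them. It was picked from these windows as their longest match, so nothing is read from this count. Ifitm1 shared at most 7 bases with Ifitm3 and at most 8 with Ifitm2. Among the measured interferon-stimulated genes named below, 28 had a promoter entry and 10 of these held GAAANNGAAA. These matches describe letters in a window and were not tested as sites.

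Ifitm3 (NM_025378), whose protein sits mainly in endosomes, had a far lower signal in every hydroxyurea array than in any saline array. Its processed signal was 10664, 15295, 8137 and 7799 on saline arrays 1 to 4 and 1654, 1539, 941 and 2004 on hydroxyurea arrays 1 to 4. The groups thus stood apart even before any scaling between arrays. On the log2 scale relative to each array's 75th percentile, the values were 4.52, 4.89, 4.75 and 4.68 in saline and 2.24, 1.87, 1.90 and 2.06 in hydroxyurea. The lowest saline array lay 2.28 above the highest hydroxyurea array. The group means were 4.71 ± 0.15 in saline and 2.02 ± 0.17 in hydroxyurea (SD, n = 4 each), a difference of -2.69, which is 6.46-fold lower. Relative to the saline mean, each hydroxyurea array kept between 13.9% and 18.1% of the Ifitm3 signal. This was the 25th lowest difference of the 14658 named genes, and Ifitm3 was chosen with it known.

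The Ifitm3 probe was printed in 10 spots per array, which gives the spread between spots within each array, though not the error of labelling or hybridisation. The SD of the log2 signal over spots lay between 0.05 (saline 1) and 0.17 (hydroxyurea 2). On saline 2, 2 spots were left out as outliers, and all spots that were kept were well above background. On slide 1 the difference was -2.65 and on slide 2 -2.73. Over all the scalings, filters and left-out arrays that were tried, it ranged from -2.77 to -2.57.

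**Figure D1:**
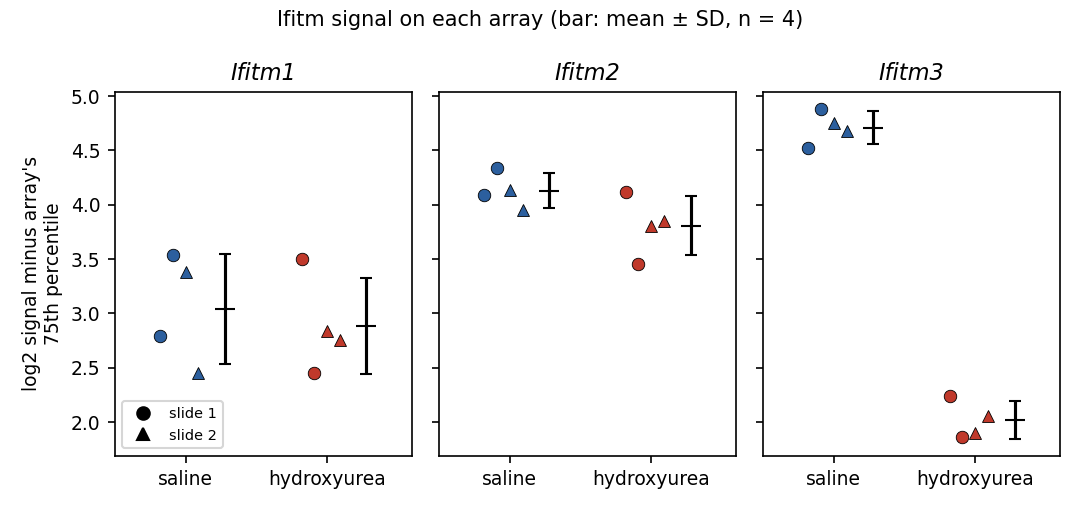
Log2 signal minus the array's 75th percentile (y axis) for Ifitm1, Ifitm2 and Ifitm3 in saline and hydroxyurea arrays; circles are slide 1, triangles slide 2, and bars give the mean ± SD of 4 arrays. The hydroxyurea arrays of Ifitm3 lie at 1.87 to 2.24 and its saline arrays at 4.52 to 4.89, while the groups overlap for Ifitm1 and Ifitm2; heights are not comparable between genes, whose probes differ.

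**Figure D2:**
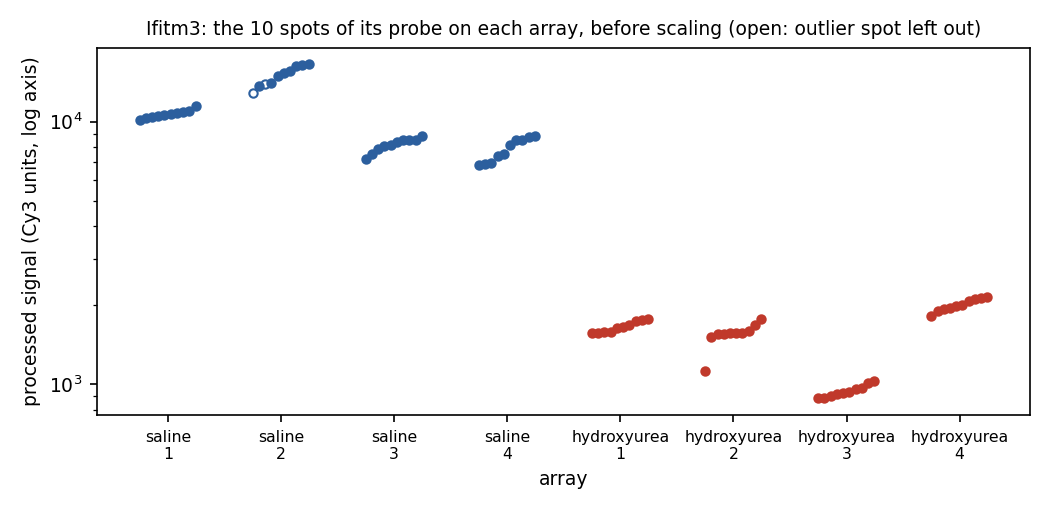
Processed Cy3 signal on a log axis for each of the 10 spots of the Ifitm3 probe on each of the 8 arrays, before scaling; open symbols are the 2 outlier spots left out. Spots within an array lie close together, and all hydroxyurea spots lie below all saline spots.

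Ifitm2 (NM_030694), whose product is a close relative of the Ifitm3 protein, differed little between the groups. Its scaled log2 values were 4.09, 4.34, 4.14 and 3.95 on saline arrays 1 to 4 and 4.12, 3.46, 3.80 and 3.85 on hydroxyurea arrays 1 to 4. Hydroxyurea 1 lay among the saline arrays and the other hydroxyurea arrays lay below all of them. The means were 4.13 ± 0.16 in saline and 3.81 ± 0.27 in hydroxyurea (SD, n = 4 each), a difference of -0.32 or 1.25-fold. The difference was -0.43 on slide 1 and -0.22 on slide 2.

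Ifitm1 (NM_001112715), which encodes the member found mostly at the cell surface, varied more among arrays than between groups. Its scaled log2 values were 2.79, 3.54, 3.38 and 2.45 on saline arrays 1 to 4 and 3.50, 2.45, 2.84 and 2.76 on hydroxyurea arrays 1 to 4. The range was nearly the same in both groups. The means were 3.04 ± 0.51 in saline and 2.89 ± 0.44 in hydroxyurea (SD, n = 4 each), a difference of -0.15. The sign of this small difference turned without saline 2, to 0.01. Ifitm1 and Ifitm2 had 1 spot each per array, so their spread between spots within an array is not known.

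Of the 3 genes, 1 had groups that did not overlap, whereas hydroxyurea lay below saline without overlap in 9.03% of all 26299 features. The contrast chose these genes, so nothing is read from this count. In the authors' deposited table of 1346 differentially expressed probes, the Ifitm3 probe was listed and those of Ifitm1 and Ifitm2 were not. The authors' deposited table gave Ifitm3 values from -1.52 to -1.14 in hydroxyurea and from 1.14 to 1.50 in saline on its own centred log2 scale, a difference of -2.69 between the means.

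A difference between 2 genes on the same array does not change when the same log2 value is subtracted from all its probes, as in the scaling used here. It is built from the same values that chose the genes and is again a description. Log2 Ifitm3 minus log2 Ifitm2 was 0.44, 0.54, 0.61 and 0.73 on saline arrays 1 to 4, and -1.87, -1.59, -1.91 and -1.79 on hydroxyurea arrays 1 to 4. The groups did not overlap, and the shift between the means was -2.37, or 5.17-fold. Against Ifitm1 the shift was -2.54, again without overlap, with 1.35 to 2.22 in saline and -1.26 to -0.59 in hydroxyurea. Log2 Ifitm2 minus log2 Ifitm1 overlapped between the groups, with means of 1.09 ± 0.37 in saline and 0.92 ± 0.21 in hydroxyurea (SD, n = 4 each). The probe sequences are not used here, so the share of signal that a probe takes from a related Ifitm transcript was not tested.

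Around their group means, the 3 genes moved together from array to array. The Pearson correlation of these deviations over the 8 arrays was 0.88 between Ifitm1 and Ifitm2, 0.80 between Ifitm1 and Ifitm3 and 0.81 between Ifitm2 and Ifitm3. Of all named genes, 8.19% were at least as alike to Ifitm3 as Ifitm1 was, and 7.59% as Ifitm2 was. To Ifitm2, 13.2% were at least as alike as Ifitm3 was, and 6.13% as Ifitm1 was. To Ifitm1, 8.08% were at least as alike as Ifitm3 was, and 3.07% as Ifitm2 was. These values share RNA, array and scaling and are a description. Hydroxyurea 1 had the highest value of its group in all 3 genes, and saline 2 the highest of the saline group.

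By level over the 8 arrays, the named genes most like Ifitm3 were Fzr1 (r = 0.993), D630003M21Rik (r = 0.99) and Ube2c (r = 0.986), with log2 differences of -0.93, -2.11 and -1.33. The difference between the groups, known when the Ifitm genes were chosen, enters each r by level, so these r values are a description. Most like Ifitm2 were Gatd3a (0.971), Exosc1 (0.969) and Trip10 (0.966), and most like Ifitm1 were Sfrp5 (0.976), Cdx2 (0.975) and Rbm19 (0.973). By deviations from the group means, the closest were Catsperz, Evpl and Myoz1 for Ifitm3 (r from 0.985 to 0.991). They were Rassf5, Tm2d1 and Smyd4 for Ifitm2 (0.989 to 0.992), and Hspb2, Slc2a1 and Vkorc1 for Ifitm1 (0.993 to 0.994). The names differ between these measures for each gene.

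The further Ifitm genes were at the edge of detection. Ifitm5, which encodes a bone-restricted member, gave processed signals from 10.8 to 32.6 and was well above background on 7 of 8 arrays. Its scaled log2 mean was -4.04 ± 0.44 in hydroxyurea and -4.17 ± 0.15 in saline (SD, n = 4 each), with overlapping groups and a difference of 0.13 that did not pass (SE 0.22, limma adjusted p = 0.77). The probes of Ifitm6 and Ifitm10 were not well above background on any array. Tmem91, a more distant relative with the same membrane domain, had a difference of -0.65 ± 0.24 (SE, n = 4 per group, limma adjusted p = 0.13). It passed without hydroxyurea 2 (adjusted p = 0.049). No measured gene of this list of relatives was called out of 3, and 1 had an unadjusted p under 0.05.

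Ifitm5, Ifitm2, Ifitm1, Ifitm3 and Ifitm6 follow each other in this order on chromosome 7, and the RefSeq table places only the pseudogene Gm7514 and the noncoding RNA Gm33504 among them. The 5 nearest measured genes on either side were compared to see whether the difference extended along the chromosome. Of these 10 neighbours, 0 were called by limma and 1 had an unadjusted p under 0.05, with 7.42% of all features called. On the side of Ifitm6 lay B4galnt4, a glycosyltransferase gene, at 0.59 ± 0.18 (SE, n = 4 per group, limma adjusted p = 0.077), with groups that did not overlap. Next came Pkp3 (-0.29), of desmosomes, Sigirr (-0.21), an inhibitor gene of interleukin receptor signalling, Ano9 (0.39) and Ptdss2 (0.14). On the side of Ifitm5 lay Pgghg (0.26), Cox8b (0.43), Psmd13 (0.03), a proteasome subunit gene, Sirt3 (0.26), a mitochondrial deacetylase gene, and Ric8a (0.04). None of the neighbours had a log2 difference below -0.29.

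**Figure D3:**
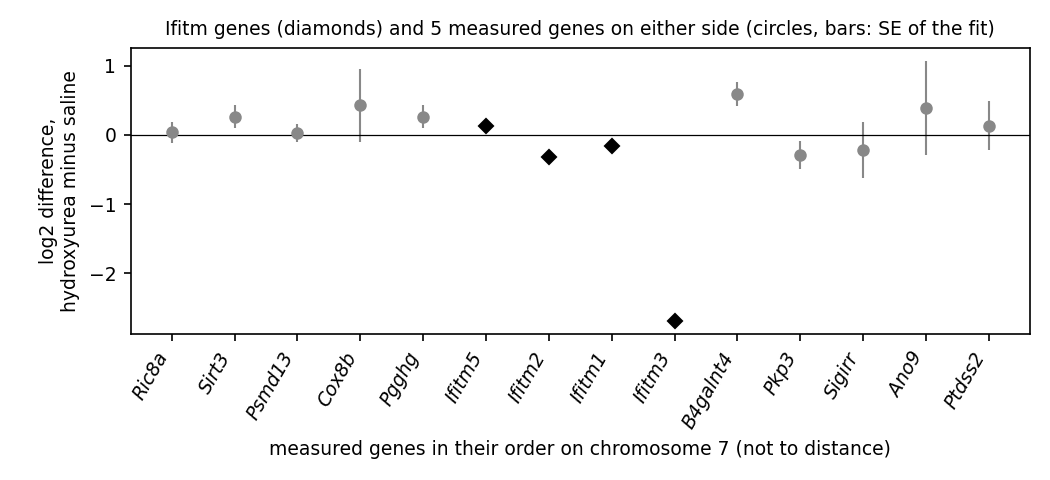
Log2 difference, hydroxyurea minus saline (y axis), for the 4 measured Ifitm genes of the cluster (diamonds) and the 5 measured genes on either side (circles, with the SE of the fit), in their order on chromosome 7 and not to distance. Ifitm3 lies at -2.69, and its measured neighbours outside the cluster between -0.29 and 0.59.

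Other genes that interferons induce were, where they passed, higher in hydroxyurea embryos. Of 56 listed genes 37 were measured, of which 4 rose, 0 fell and 33 did not pass, with 2.62% of all features called higher and 4.8% lower. At an unadjusted p under 0.05 the limma counts were 16 higher and 3 lower. The median log2 difference of the list was 0.43, against 0.10 over named genes and 0.02 over all features. In 10 of the 37 genes hydroxyurea lay above saline without overlap and in 1 below it, as in 7.32% and 9.03% of all features. Herc6, a ligase gene of the interferon response, rose by 1.04 ± 0.16 on the log2 scale (SE, n = 4 per group, limma adjusted p = 0.0064). Its values were -2.44 to -2.21 in hydroxyurea and -3.66 to -3.19 in saline. Ifit2, whose product binds viral RNA, rose by 0.96 ± 0.23 (adjusted p = 0.036). Eif2ak2, the gene of the kinase PKR that halts translation on double-stranded RNA, rose by 0.87 ± 0.17 (adjusted p = 0.016), and Irgm1, an immunity-related GTPase gene, by 0.71 ± 0.18 (adjusted p = 0.046).

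Among the listed genes that did not pass, Isg15, a ubiquitin-like modifier and a common marker of interferon action, stood at -0.09 and Bst2, which tethers virus particles to the cell, at 0.53. The lowest difference in the list was that of Zbp1 (-0.82, adjusted p = 0.051), a sensor of nucleic acids. No listed gene came near the -2.69 of Ifitm3. No probe of Ifit1, Ifi44, Irf7, Xaf1, Parp12 or Gbp3 was well above background on any array. With normexp background correction the calls of Herc6 (0.47, limma adjusted p = 0.095), Ifit2 (0.59, adjusted p = 0.055) and Irgm1 (0.52, adjusted p = 0.072) were lost. That of Irgm1 was also lost in the fit blocked by slide (adjusted p = 0.064), under median centring (0.069) and with the mean of its probes (0.11). Without a filter on dim probes Ifit2, Eif2ak2 and Irgm1 did not pass (adjusted p from 0.069 to 0.16). With an array left out, the call of Ifit2 held only without hydroxyurea 2 or saline 1, that of Irgm1 only without hydroxyurea 2, and that of Eif2ak2 was lost without hydroxyurea 1 or hydroxyurea 4.

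**Figure D4:**
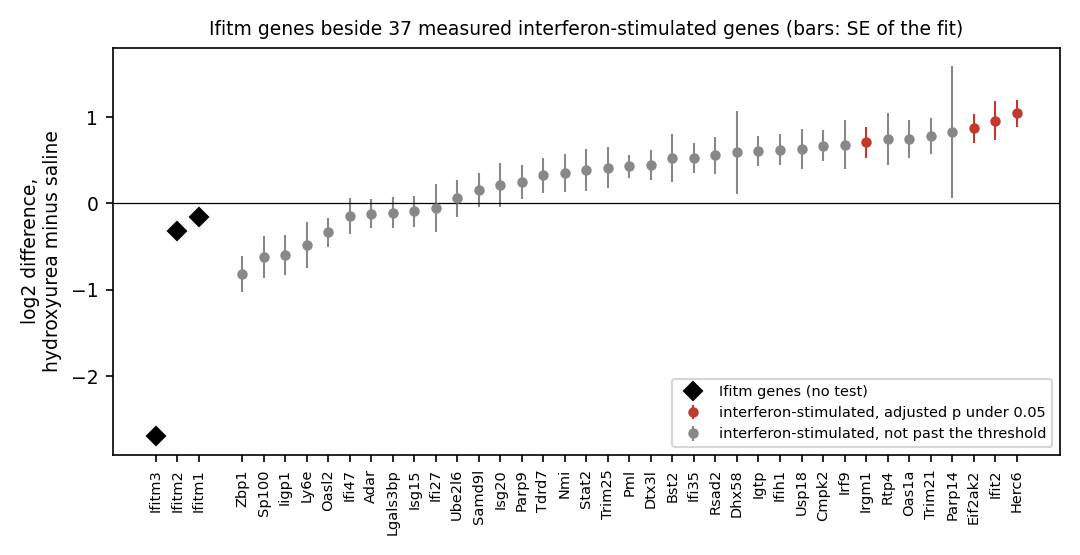
Log2 difference, hydroxyurea minus saline (y axis), for the Ifitm genes (diamonds, untested) and 37 measured interferon-stimulated genes in order of their difference (circles, with the SE of the fit; red where the adjusted p is under 0.05). Ifitm3 at -2.69 lies below the lowest listed gene, Zbp1 at -0.82, and the 4 called genes lie between 0.71 and 1.04.

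Of the interferon ligands, receptors and signalling genes, 24 of 30 were measured, of which 1 was higher, 1 lower and 22 did not pass. Their median log2 difference was 0.24, with 15 differences above 0 and 9 below. Limma gave 7 higher and 3 lower at an unadjusted p under 0.05. In 5 genes hydroxyurea lay above saline without overlap and in 3 below it, as in 7.32% and 9.03% of all features. Over all features, 2.62% were called higher and 4.8% lower. Irf1, which encodes an interferon-induced activator of transcription, was higher by 1.21 ± 0.18 (SE over 4 arrays a group, limma adjusted p = 0.0062), with 0.63 to 1.25 in hydroxyurea and -0.47 to -0.08 in saline. Ifnk, the gene of interferon kappa, was at least 2.06-fold lower in hydroxyurea (limma adjusted p = 0.0048), where no array was well above background. It passed the filter on dim probes only through the saline arrays, so its call is given as a description; without that filter the adjusted p was 0.018. For the bound, each hydroxyurea array stood at its dimmest probe still well above background. With normexp the Ifnk difference was -0.32 (adjusted p = 0.35). The receptor genes Ifnar1 (0.24), Ifnar2 (-0.36), Ifngr1 (-0.11) and Ifngr2 (0.26) did not pass, nor did the kinase genes Jak1 (0.38) and Jak2 (0.24). Ifna4, Ifng and Ifne were not well above background on any array.

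Genes of proteins that bind or modify IFITM proteins were measured for 10 of 10 and called by limma for 0, with 2 higher and 1 lower at an unadjusted p under 0.05. Vapa, an endoplasmic reticulum protein that binds IFITM3, stood at -0.55 ± 0.18 (SE, n = 4 per group, limma adjusted p = 0.1). Cd81, a tetraspanin partner, stood at 0.38 ± 0.16 (adjusted p = 0.17).

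Whole embryos hold many cell types, and in such RNA fewer cells of a type and less RNA per cell cannot be told apart. All 15 listed markers of the gestational day 9 embryo were measured, from neural tube, mesoderm, heart, blood and crest, of which 2 were lower and 13 did not pass. The lower genes were Sox10, of neural crest, at -0.79 ± 0.15 (SE, n = 4 per group, limma adjusted p = 0.016), and Tbx5, of heart and forelimb, at -0.78 ± 0.18 (adjusted p = 0.035). At an unadjusted p under 0.05 the list had 6 lower and 0 higher, and 12 of 15 differences were below 0, with a median of -0.24. Hydroxyurea lay below saline without overlap in 5 of the 15, against 9.03% of all features. For this list and the marker lists below, the shares of all features called were 2.62% higher and 4.8% lower. The summed scaled signal of the list overlapped, at 859 to 1471 in hydroxyurea and 951 to 1329 in saline. The call of Tbx5 was lost in the fit blocked by slide (adjusted p = 0.053) and under median centring (0.096), and with an array left out it held only without hydroxyurea 2 or 3. That of Sox10 was lost with median centring (0.098) and without hydroxyurea 4 (0.057).

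Primordial germ cell markers, of cells in which Ifitm3 RNA is known to be high, were measured for 9 of 12. Nanos3, a germ cell survival gene, fell by 0.87 (SE 0.19, limma adjusted p = 0.027), and the other 8 did not pass. Of the 9 differences 4 were above 0, among them Alpl (0.87, adjusted p = 0.12) and Dnd1 (0.73, adjusted p = 0.22), and the median was -0.27. At an unadjusted p under 0.05, 1 was higher and 2 were lower. The call of Nanos3 was lost with median centring (adjusted p = 0.053). With an array left out, the call of Nanos3 held only when that array was hydroxyurea 2 or saline 1. The summed scaled signal of these markers was 28.2 to 39.3 in hydroxyurea and 38.9 to 65.9 in saline. Such sums weigh bright probes most, here that of Lin28a, an RNA-binding protein gene, with a difference of -0.99 (adjusted p = 0.05, not called). The germ cell markers Dppa3, Prdm14 and Pou5f1 were too dim to be measured.

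Of 8 measured macrophage and leukocyte markers 0 were called by limma and 1 was lower at an unadjusted p under 0.05. Of the 8 differences 5 were above 0, with a median of 0.18. Csf1r, the colony-stimulating factor receptor gene of macrophages, stood at -1.52 ± 0.48 (SE, n = 4 per group, limma adjusted p = 0.091). With the mean of its probes it was -0.98 (adjusted p = 0.089). It passed with normexp (adjusted p = 0.033) and without hydroxyurea 2 (adjusted p = 0.034). Aif1, a calcium-binding protein gene of macrophages, stood at 0.64 ± 0.29 (adjusted p = 0.22), Cd14 at 0.60 and Tyrobp at 0.51, and none of them passed. The summed signal was 10.3 to 16.5 in hydroxyurea and 16.3 to 30.6 in saline, where saline 4 stood apart from the others (16.3 to 18.3), and its brightest probe was that of Itgam (-0.49, adjusted p = 0.28). Fcgr1 and Lyz2 were not well above background on any array. The part of germ cells and macrophages in the lower Ifitm3 signal was not tested.

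Of 12 endothelial markers Erg fell by 0.95 (SE 0.23, limma adjusted p = 0.041) and 11 did not pass. Their differences were above 0 in 5 and below 0 in 7, with a median of -0.06. Limma gave 2 higher and 3 lower at an unadjusted p under 0.05. The sums overlapped at 58.8 to 66.4 in hydroxyurea and 56.3 to 71.1 in saline. The call of Erg was lost with normexp (-0.40, adjusted p = 0.25) and median centring (0.081) and held, with an array left out, only for hydroxyurea 2, hydroxyurea 3 or saline 1. Of 5 measured trophoblast markers Ascl2 rose by 0.90, Hand1, which the embryo's own heart also expresses, fell by 1.42, and 3 did not pass. The differences of 4 of the 5 were above 0, with a median of 0.90, and only that of Hand1 was below 0. Limma gave 1 higher and 1 lower at an unadjusted p under 0.05. With an array left out, the call of Ascl2 held for hydroxyurea 2 or 3 only. Trophoblast sums were 10.8 to 37.9 in hydroxyurea and 6.26 to 35.4 in saline, where the highest was saline 4 and the others reached 9.75. Without a filter on dim probes Sox10, Tbx5, Nanos3, Erg and Ascl2 did not pass (limma adjusted p from 0.074 to 0.12).

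Visceral yolk sac endoderm markers were called by limma for 0 of 10 (0 at an unadjusted p under 0.05), with sums from 20.5 to 96.9 in hydroxyurea and from 23.4 to 274.5 in saline. The highest was saline 2, and the other saline arrays reached 70.2. Of the 10 differences 9 were below 0, with a median of -0.77. The lowest p values were those of Apoa4, an apolipoprotein gene (-1.72, adjusted p = 0.28), and Lrp2, an endocytic receptor gene (0.43, adjusted p = 0.3). Markers of maternal decidua were called for 0 of 10 (2 higher at an unadjusted p under 0.05), with sums from 12.2 to 77.9 in hydroxyurea and from 9.25 to 14.4 in saline. The highest was hydroxyurea 3, and the other hydroxyurea arrays reached 17.2. Of this list Prl8a2 spread most, from -6.85 to 6.01 in hydroxyurea and from -7.51 to -2.03 in saline on the scaled log2 scale. It was well above background on 3 hydroxyurea and 2 saline arrays. Its difference was 3.87 ± 2.62 (SE, n = 4 per group, limma adjusted p = 0.39). Pgr, the progesterone receptor gene, stood at 1.35 (adjusted p = 0.053; 0.039 with median centring and 0.022 without hydroxyurea 2) and Bmp2, a growth factor gene, at 0.76 (adjusted p = 0.13). Tpbpa and Ctsq of trophoblast and Prl3c1 of decidua were not well above background on any array. The part of these tissues in the Ifitm3 difference was not tested.

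**Figure D5:**
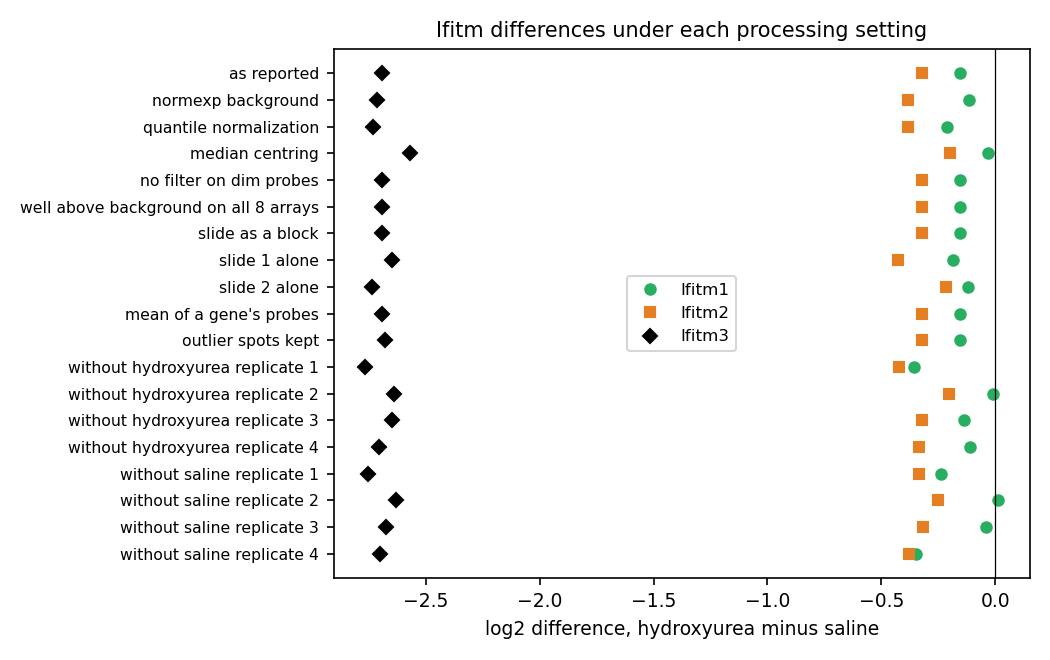
Log2 difference, hydroxyurea minus saline (x axis), of Ifitm1, Ifitm2 and Ifitm3 as reported and under each of 18 alternative settings (y axis). Ifitm3 stays between -2.77 and -2.57, Ifitm2 between -0.43 and -0.20, and Ifitm1 between -0.36 and 0.01.

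Between 48.7% and 62.3% of spots were well above background over the 8 arrays, and the 75th percentile of the signal ran from 253 to 517. Of 26299 features 1952 were called by limma, 690 higher and 1262 lower. With 4 arrays a group, precision is limited by their number.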

How the data were processed

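Cy3 intensity per spot was deposited by the authors as written by Agilent Feature Extraction 11.5.1.1, per the file headers and the submitters' processing notes, with background subtracted and arrays not scaled to each other. The authors' deposited table holds log2 values described only as normalized signal, and its method is not given in the sources used here. Groups came from the labels.

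Outlier spots (151 to 315 per array) were left out, and each probe's log2 processed signal was averaged over its spots and scaled by subtracting the array's 75th percentile. Where all spots of a probe were outliers on an array (143 values, none of them of the Ifitm genes), they were kept. No spot was saturated. Probes well above background on at least 4 of 8 arrays were kept (30759 of 55681), and the brightest stood for its gene. RefSeq accessions gave 26582 probes a symbol. limma 3.58.1 in R 4.3.3 was fitted over all 26299 features without covariates (two-sided p-values, Benjamini-Hochberg adjustment over all features, called under 0.05) and tested on simulated data. Median centring moved the median difference of all features from 0.02 to 0.14, so differences are relative to the scaling.

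The Ifitm genes and the gene lists were chosen with earlier results of these data known, and the 2 promoter patterns after the promoters had been read. Genes were named by rule: all Ifitm genes; per list the called genes with the lowest p (up to 5 for interferon-stimulated genes, up to 3 otherwise) or the 2 with the lowest p; 5 measured neighbours on either side; and the 3 most alike genes per Ifitm gene. Isg15, Bst2, Zbp1, the receptors, Jak1, Jak2, Alpl, Dnd1, Lin28a, Cd14, Tyrobp, Itgam and Prl8a2 were named after their values were seen. Alternatives were normexp (on median spot signals), quantile normalization, median centring, other filters, the slide, other probe rules and each array left out. Some listed genes are not reported here.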

Additional observations from a re-analysis of the deposited data

Results flagged for a closer look

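Among the Ifitm genes, the named list genes and the neighbours, 70 groups of 4 arrays were checked for an array far from the others, and 6 stood out, where chance gives about 1 in 20. None was of an Ifitm gene. On the scaled log2 scale, Ano9 stood at -5.32 on hydroxyurea 3, against -2.49 for the nearest of the other hydroxyurea arrays. Cox8b stood at -3.27 on hydroxyurea 4 (nearest -4.34). Ifnk stood at -5.32 on hydroxyurea 2 (nearest -5.91), where it was not well above background, and at -3.31 on saline 4 (nearest -4.12). Sox10 stood at 0.43 on hydroxyurea 1 (nearest 0.10) and at 1.09 on saline 4 (nearest 0.90).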

How the results depend on the processing

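The differences of Ifitm1, Ifitm2 and Ifitm3 moved by less than the SD between arrays under all 18 alternatives. Leaving out each array in turn gave -0.36 to 0.01 for Ifitm1, -0.42 to -0.20 for Ifitm2 and -2.77 to -2.63 for Ifitm3. The count of features called was 870 without a filter on dim probes, 50 on slide 1 alone and 3 on slide 2 alone, with fewer arrays in the last 2, and 859 to 4414 with an array left out. The count of interferon-stimulated genes called was 1 with normexp, 1 without a filter, 0 on slide 1 and 0 on slide 2 (limma; 5 and 12 at an unadjusted p under 0.05), and 1 to 9 with an array left out, highest without hydroxyurea 2 (7 higher and 2 lower). The cause of the change with normexp was not tested. None of the listed genes named as called passed on either slide alone. No paired analysis was possible because the labels carry no replicate numbers, and the array numbers used here only follow the order of the samples. Ifitm5 and Ifnk lay near background, which limits their differences.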
